A study of Rattus norvegicus with 18 samples.

Results

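The genes described here are 10 genes of the choroid plexus and of the ependyma, measured in the hypothalamus of rats on Affymetrix arrays. They are Ttr, Kcne2, Slco1a5, Folr1, Mfrp, Clic6, Fxyd1, Enpp2, Igf2 and Foxj1. A probe set, the group of short probes that gives 1 signal, was taken for a gene when its only symbol in the platform annotation was that gene's. This gave 14 probe sets for 9 genes, of 14217 genes named this way and 31042 probe sets that are not array controls in all, with 3 for Kcne2 and 4 for Igf2. No probe set carried Clic6 as its only symbol, and it was not measured here. A further probe set lists Ttr together with metallothionein symbols and was left out.

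The series holds 18 arrays of 2 tissues, 9 from hypothalamus and 9 from subcutaneous abdominal fat, with 3 arrays for each of 3 groups of animals in each tissue. RYGB-Success rats were losing weight after Roux-en-Y gastric bypass, in which a small stomach pouch is joined to a lower stretch of small intestine. RYGB-Fail rats were gaining weight after the same operation, and Pair-Fed rats received as much food as the treated rats. The series describes the 3 RNA samples of a group as biological replicates. Strain, sex, age, time after surgery and whether Pair-Fed rats had a sham operation are not given in the sources used here. The labels tell the bypass groups apart by the animals' weight course.

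The choroid plexus is a vascular fold covered by epithelium that hangs into the brain ventricles and secretes cerebrospinal fluid. Its epithelial cells move ions, folate and organic anions between blood and cerebrospinal fluid and release carrier proteins and growth factors. The ependyma is the ciliated layer that lines the ventricles, and the third ventricle, which has a choroid plexus in its roof, runs through the middle of the hypothalamus. Transthyretin, the product of Ttr, carries thyroid hormone and retinol-binding protein and is the best known secreted product of the choroid plexus. In bulk tissue, more cells of a type and more RNA per cell cannot be told apart.

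Promoter windows are shown for 3 genes whose only probe set had every bypass array above every Pair-Fed array, Slco1a5, Mfrp and Fxyd1, and for Ttr, the marker that defines the choroid plexus. Each window holds 300 bases around an annotated transcript start, from RefSeq on the GRCr8 assembly, and 5 of the 10 genes had a window in the table used here. The windows were searched on both strands for 4 motifs. The core bound by the choroid plexus factor OTX2 was written TAATCC, and the core of forkhead factors such as the product of Foxj1 was written TGTTTA. The promoter element TATAAA and an E-box, CAGCTG, which reads the same on both strands, were searched as well. No 2 of these motifs overlapped in the windows printed. Matches are in capitals.
Slco1a5, chr4:176963763-176964062, minus strand: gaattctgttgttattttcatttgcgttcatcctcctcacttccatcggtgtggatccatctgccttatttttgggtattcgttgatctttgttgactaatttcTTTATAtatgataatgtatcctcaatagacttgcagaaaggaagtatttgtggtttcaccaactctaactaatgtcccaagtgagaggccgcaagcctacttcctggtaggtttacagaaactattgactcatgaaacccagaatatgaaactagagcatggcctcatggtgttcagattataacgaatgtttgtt
Mfrp, chr8:53342284-53342583, plus strand: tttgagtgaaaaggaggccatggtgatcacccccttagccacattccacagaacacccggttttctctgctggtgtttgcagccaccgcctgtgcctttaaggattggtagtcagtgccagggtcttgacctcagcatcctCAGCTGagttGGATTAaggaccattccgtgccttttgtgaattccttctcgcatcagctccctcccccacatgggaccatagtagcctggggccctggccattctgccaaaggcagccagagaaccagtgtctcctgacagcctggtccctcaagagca
Fxyd1, chr1:95418531-95418830, minus strand: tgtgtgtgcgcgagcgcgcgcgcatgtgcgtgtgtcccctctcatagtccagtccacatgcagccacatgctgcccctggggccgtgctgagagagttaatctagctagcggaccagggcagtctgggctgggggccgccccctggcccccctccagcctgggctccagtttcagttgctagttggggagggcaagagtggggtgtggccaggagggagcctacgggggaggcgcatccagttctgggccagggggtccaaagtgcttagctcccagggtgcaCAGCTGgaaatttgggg
Ttr, chr18:12218508-12218807, plus strand: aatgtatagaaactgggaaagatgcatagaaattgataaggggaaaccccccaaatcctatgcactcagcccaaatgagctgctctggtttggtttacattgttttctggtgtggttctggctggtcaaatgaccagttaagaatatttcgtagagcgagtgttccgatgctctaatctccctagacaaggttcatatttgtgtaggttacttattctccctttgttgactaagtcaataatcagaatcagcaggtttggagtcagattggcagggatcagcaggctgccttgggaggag
The Slco1a5 window held TATAAA on the other strand (read there as TTTATA) at -146 from the start site. The Mfrp window held the OTX2 core on the other strand (GGATTA) at -99 and the E-box at -109. The Fxyd1 window held the E-box at 33 bases past the start, and in the Ttr window none of the 4 motifs was found. Of all 33469 windows of this length in the table, 7.17% held TAATCC, 13.7% TGTTTA, 14.2% TATAAA and 15.1% CAGCTG, counting both strands. The Ttr and Slco1a5 windows lie inside the annotated spans of their genes, which are chr18:12216684-12225972 and chr4:176903387-176985589. They stand around an inner transcript start, and the sequence at the outermost start of these genes was not searched. These matches are a description of the letters in the windows.

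Values are the authors' linear signals, already scaled so that each array has the same trimmed mean. By most markers looked at, the arrays matched their tissue. Pmch, the precursor of melanin-concentrating hormone of the lateral hypothalamus, had signals of 2101 to 20005 on hypothalamus arrays, against 3.20 to 88.7 on fat arrays. Avp and Snap25 were likewise higher on all hypothalamus arrays, and Adipoq on all fat arrays. Hcrt overlapped, with 48.0 to 657 in hypothalamus and 5.43 to 232 in fat. Lep overlapped too, with 4.34 to 65.5 in hypothalamus and 8.19 to 191 in fat. The median over all probe sets was 104 to 127 on RYGB-Success arrays, 91.1 to 109 on RYGB-Fail arrays and 91.5 to 98.8 on Pair-Fed arrays. The ratio of 3' to 5' signal of the beta-actin controls, a sign of RNA integrity and of amplification, was 6.65 to 48.5 on RYGB-Success arrays, 13.1 to 18.0 on RYGB-Fail arrays and 10.1 to 179 on Pair-Fed arrays. RYGB-Success array 3 stood furthest apart, with a median correlation of 0.904 with the other hypothalamus arrays. The number of arrays limits the precision of every value given here.

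Across the choroid plexus and ependyma genes, signals were mostly higher on bypass arrays than on Pair-Fed arrays, and no probe set among them passed the test. The test was limma on log2 signals of the 9 hypothalamus arrays, over the 18625 probe sets with the highest mean signal, with Benjamini-Hochberg adjustment over all of them and a threshold of 0.05. Of the 14 probe sets, 10 were in that test, covering all 9 measured genes. In RYGB-Success against Pair-Fed, 0 of these 10 passed, beside 0.0107% of all probe sets tested, with adjusted p-values of 0.173 to 0.900. In RYGB-Fail against Pair-Fed, 0 of 10 passed, beside 0.0% of all, with adjusted p-values of 1.00. In RYGB-Success against RYGB-Fail, 0 of 10 passed, beside 0.00537% of all, with adjusted p-values of 0.784 to 0.996. The F test over the 3 groups called 0 of the 10, beside 0.0107% of all. Both bypass comparisons use the same 3 Pair-Fed arrays, so they are not independent of each other.

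Without the filter on low signals, all 14 probe sets can be counted. At an unadjusted p under 0.05, 6 of 14 were higher in RYGB-Success than in Pair-Fed, beside 6.27% of all 31042 probe sets. In RYGB-Fail against Pair-Fed 7 of 14 were higher, beside 2.26% of all. These 7 include a dim Igf2 probe set, 1388252_at, that was under the filter. In RYGB-Success against RYGB-Fail 0 of 14 differed in either direction, beside 5.96% of all. The median difference over the 14 was 0.88 log2 for RYGB-Success minus Pair-Fed, where all probe sets had 0.12, and 0.93 for RYGB-Fail minus Pair-Fed, where all had 0.04. For RYGB-Success minus RYGB-Fail the median was -0.02, where all probe sets had 0.07.

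**Figure D1:**
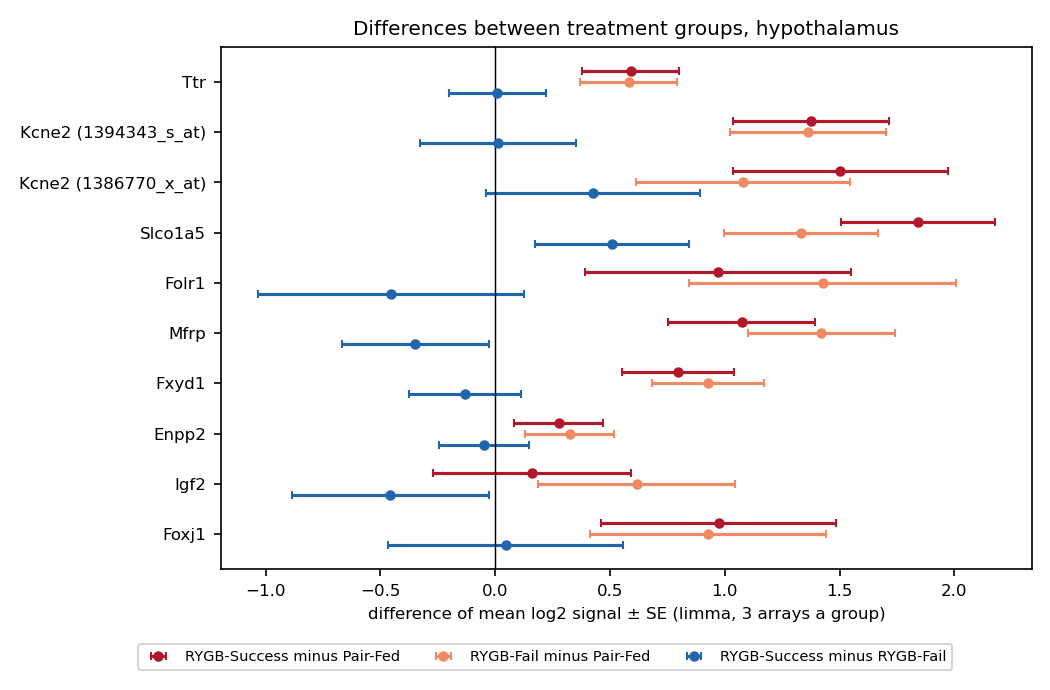
Difference in log2 signal (limma estimate with its standard error) of the 10 tested probe sets in each comparison, 3 arrays a group. All 10 estimates lie above 0 against Pair-Fed in both bypass groups, and none passed after adjustment. Those of RYGB-Success minus RYGB-Fail lie on both sides of 0. Folr1 and Foxj1 had Pair-Fed mean signals of 40.4 and 38.7, under the filter level of 52.7. Their place among the 10 rests on their higher bypass signals, so their estimates above 0 are no added support. Probe sets under the filter level are not drawn. With them, 12 of 14 estimates were above 0 for RYGB-Success minus Pair-Fed and 11 of 14 for RYGB-Fail minus Pair-Fed.

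The groups can also be set against each other array by array. All 3 RYGB-Success arrays lay above all 3 Pair-Fed arrays for 5 of the 14 probe sets, beside 10.8% of all 31042. All 3 RYGB-Fail arrays lay above all 3 Pair-Fed arrays for 8 of the 14, beside 5.53% of all. These 8 include the Igf2 probe set 1388252_at, which was too dim to be tested. Its signals were 74.4, 46.7 and 22.6 in RYGB-Fail and 17.5, 6.94 and 1.43 in Pair-Fed. None of the 14 had all bypass arrays below Pair-Fed, beside 5.71% of all in RYGB-Success and 3.76% in RYGB-Fail. With the brightest probe set standing for each gene, all arrays lay above Pair-Fed for 4 of 9 genes in RYGB-Success (Kcne2, Slco1a5, Mfrp and Fxyd1), beside 11.5% of all 14217 genes. In RYGB-Fail this held for 7 of 9 (those 4 with Ttr, Folr1 and Enpp2), beside 6.12% of all genes. For Kcne2 the other probe sets overlapped in RYGB-Fail. Between the bypass groups, 1 of the 14 probe sets did not overlap, a Kcne2 probe set that was higher in RYGB-Success, beside 6.41% of all, and 0 were lower, beside 3.87% of all.

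**Figure D2:**
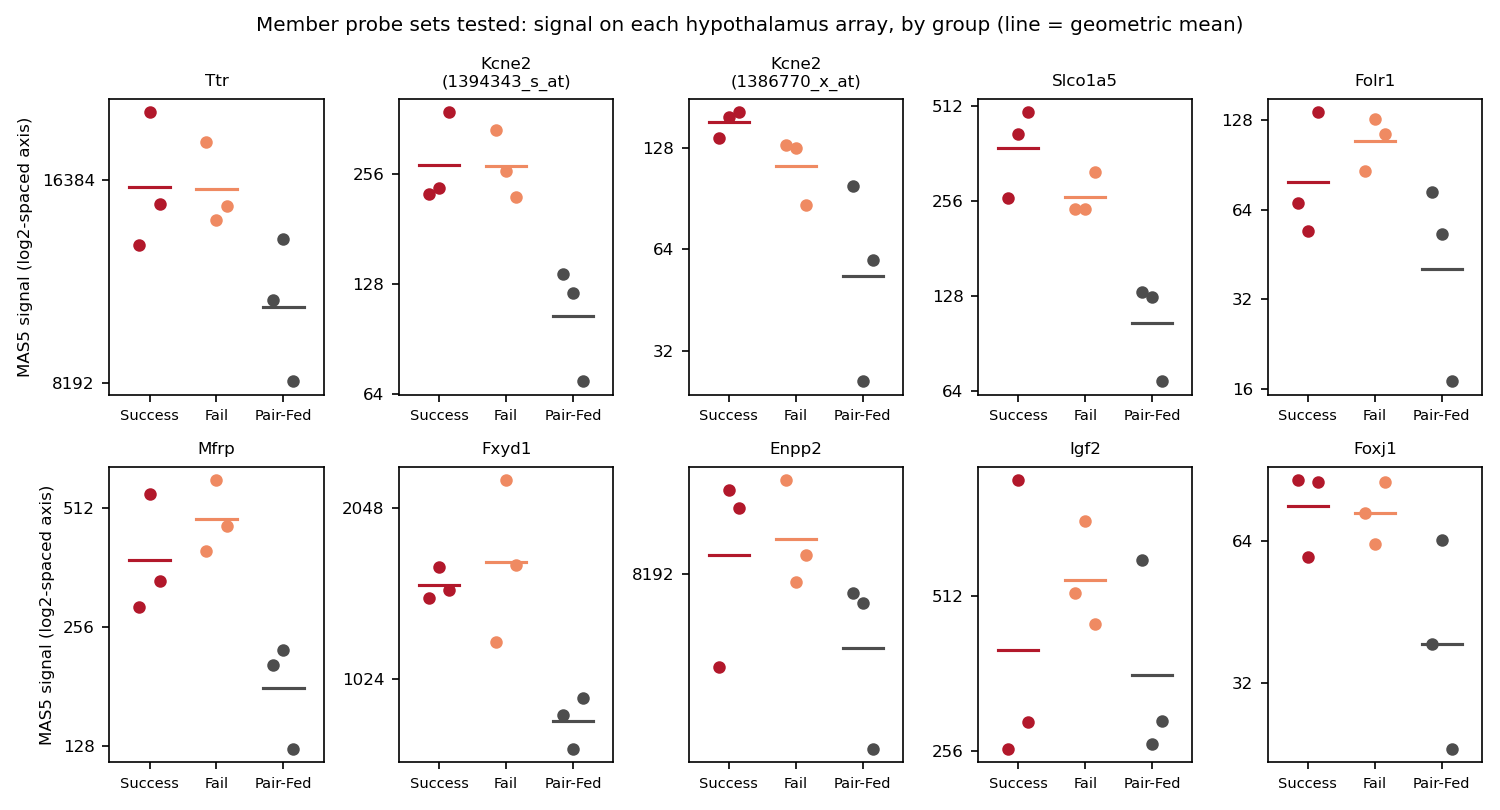
Signal of each tested probe set on every hypothalamus array (log axis), with RYGB-Success left, RYGB-Fail in the middle and Pair-Fed right, and the group mean of log2 signals as a bar. Slco1a5, Mfrp, Fxyd1 and Kcne2 (1394343_s_at) have every bypass array above every Pair-Fed array, while Igf2 and Foxj1 overlap.

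Among the secreted products, Ttr had signals of 13120, 20677 and 15085 in RYGB-Success, 18688, 14310 and 15022 in RYGB-Fail, and 10858, 13420 and 8234 in Pair-Fed. Every RYGB-Fail array was above every Pair-Fed array, and RYGB-Success array 1 was just below Pair-Fed array 2. The mean log2 signal was 13.97 ± 0.34 in RYGB-Success, 13.96 ± 0.21 in RYGB-Fail and 13.38 ± 0.35 in Pair-Fed (SD, n = 3 each). The limma difference was 0.59 ± 0.21 log2 (SE; adjusted p = 0.295) for RYGB-Success minus Pair-Fed and 0.58 ± 0.21 (adjusted p = 1.00) for RYGB-Fail minus Pair-Fed.

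Enpp2 encodes autotaxin, a secreted enzyme that makes lysophosphatidic acid and is made by choroid plexus epithelium, and also by adipocytes and oligodendrocytes. Its signals were 6753, 9728 and 9369 in RYGB-Success, 9931, 8043 and 8509 in RYGB-Fail, and 7875, 7716 and 5705 in Pair-Fed. RYGB-Fail arrays were all above Pair-Fed arrays, and RYGB-Success array 1 lay below 2 of the Pair-Fed arrays. The differences were 0.28 ± 0.20 log2 for RYGB-Success minus Pair-Fed (adjusted p = 0.558) and 0.32 ± 0.20 for RYGB-Fail minus Pair-Fed (adjusted p = 1.00).

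Igf2, a growth factor that the choroid plexus and meninges release in the adult brain, had signals of 258, 861 and 291 in RYGB-Success, 518, 716 and 451 in RYGB-Fail, and 602, 264 and 292 in Pair-Fed on its brightest probe set, 1367571_a_at. The 3 groups overlapped. The differences were 0.16 ± 0.43 log2 for RYGB-Success minus Pair-Fed (adjusted p = 0.900) and 0.62 ± 0.43 for RYGB-Fail minus Pair-Fed (adjusted p = 1.00). The other 3 probe sets of Igf2 were too dim to be tested, with signals of 1.43 to 106, and without the filter their differences ran both ways. For RYGB-Fail minus Pair-Fed, 1388252_at gave 2.94 ± 1.20, 1398322_at gave -0.80 ± 0.88 and 1371206_a_at gave -0.88 ± 1.16, with adjusted p-values of 1.00.

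Among the channels and transporters, Kcne2 encodes a small subunit of potassium channels that sits in the apical membrane of choroid plexus epithelium. Its brightest probe set, 1394343_s_at, had signals of 225, 234 and 377 in RYGB-Success, 337, 261 and 221 in RYGB-Fail, and 136, 121 and 69.3 in Pair-Fed. All 6 bypass arrays were above all 3 Pair-Fed arrays. The differences were 1.37 ± 0.34 log2 for RYGB-Success minus Pair-Fed (adjusted p = 0.215) and 1.36 ± 0.34 for RYGB-Fail minus Pair-Fed (adjusted p = 1.00), or 2.59-fold and 2.57-fold.

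The second Kcne2 probe set, 1386770_x_at, had signals of 137, 157 and 163 in RYGB-Success, 131, 128 and 86.7 in RYGB-Fail, and 98.6, 26.1 and 59.6 in Pair-Fed. RYGB-Success arrays were above all the others, and RYGB-Fail array 3 fell below Pair-Fed array 1. The suffixes _s_at and _x_at mark probe sets whose probes also match other transcripts. The third, 1369322_at, was near the bottom of the scale, with signals of 5.01 to 52.0, and was not tested. Without the filter it gave -1.16 ± 1.05 log2 for RYGB-Success minus Pair-Fed (adjusted p = 0.716), the opposite sign to the other probe sets of this gene. The annotation gives the same source sequence for 1394343_s_at and 1386770_x_at, and another for 1369322_at. The first and second probe sets are therefore not separate evidence, and the counts of probe sets for RYGB-Success against Pair-Fed include both.

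Slco1a5 encodes an organic anion transporter that carries thyroid hormones and bile acids and lies in the apical membrane of rat choroid plexus. Its signals were 261, 418 and 489 in RYGB-Success, 242, 242 and 316 in RYGB-Fail, and 132, 127 and 68.8 in Pair-Fed. The lowest bypass array was 242 and the highest Pair-Fed array 132. The difference was 1.84 ± 0.34 log2 (3.59-fold, adjusted p = 0.173) for RYGB-Success minus Pair-Fed and 1.33 ± 0.34 (2.52-fold, adjusted p = 1.00) for RYGB-Fail minus Pair-Fed. In RYGB-Success minus Pair-Fed it had the lowest adjusted p-value of the 10 probe sets tested.

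Fxyd1 encodes phospholemman, a regulator of the sodium pump. Its signals were 1421, 1614 and 1472 in RYGB-Success, 1191, 2296 and 1629 in RYGB-Fail, and 884, 771 and 949 in Pair-Fed. The bypass arrays were all above the Pair-Fed arrays, and the RYGB-Success arrays lay closer together, with an SD of 0.09 log2, than the RYGB-Fail arrays, with 0.47 log2. The differences were 0.80 ± 0.24 log2 for RYGB-Success minus Pair-Fed (adjusted p = 0.243) and 0.93 ± 0.24 for RYGB-Fail minus Pair-Fed (adjusted p = 1.00).

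Folr1, the folate receptor through which the choroid plexus brings folate into the cerebrospinal fluid, had signals of 67.3, 54.2 and 136 in RYGB-Success, 86.1, 129 and 115 in RYGB-Fail, and 73.2, 52.9 and 17.0 in Pair-Fed. RYGB-Fail arrays were above Pair-Fed arrays, and RYGB-Success arrays overlapped both. The differences were 0.97 ± 0.58 log2 for RYGB-Success minus Pair-Fed (adjusted p = 0.492) and 1.43 ± 0.58 for RYGB-Fail minus Pair-Fed (adjusted p = 1.00). These signals are low, and holding every signal at no less than 52.7, the lowest mean signal in the test, gave 0.43 and 0.88.

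Mfrp encodes a membrane protein with a frizzled-like domain, known mostly from the retinal pigment epithelium. Its signals were 288, 557 and 334 in RYGB-Success, 397, 602 and 462 in RYGB-Fail, and 205, 223 and 126 in Pair-Fed. All 6 bypass arrays were above all 3 Pair-Fed arrays. The differences were 1.07 ± 0.32 log2 for RYGB-Success minus Pair-Fed (adjusted p = 0.233) and 1.42 ± 0.32 for RYGB-Fail minus Pair-Fed (adjusted p = 1.00).

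Foxj1, the master transcription factor of motile cilia and the ependymal marker of the set, had signals of 86.3, 59.3 and 85.7 in RYGB-Success, 73.4, 63.2 and 85.7 in RYGB-Fail, and 38.7, 64.4 and 23.2 in Pair-Fed. Pair-Fed array 2 lay inside the range of both bypass groups. The differences were 0.97 ± 0.51 log2 for RYGB-Success minus Pair-Fed (adjusted p = 0.435) and 0.93 ± 0.51 for RYGB-Fail minus Pair-Fed (adjusted p = 1.00). With signals held at 52.7 they were 0.43 and 0.38.

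Between the bypass groups, the differences of the 10 probe sets ran from -0.46 to 0.51 log2, and 5 of 10 were above 0. Slco1a5 gave 0.51 ± 0.34 (adjusted p = 0.784), which was 0.09 with array weights and 0.32 to 0.77 with 1 array left out. Igf2 gave -0.46 ± 0.43 (adjusted p = 0.830), which was -1.01 to -0.14 with 1 array left out. For Ttr it was 0.01 ± 0.21 and for Kcne2 (1394343_s_at) 0.01 ± 0.34. With the brightest probe set standing for each gene, the 2 bypass groups overlapped for all 9 genes. The second Kcne2 probe set, 1386770_x_at, had every RYGB-Success array above every RYGB-Fail array. Its difference was 0.42 ± 0.47 (adjusted p = 0.851).

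Pair-Fed array 3 was the lowest of the 9 arrays for 7 of the 10 probe sets. The mean centred level of the 9 genes, each gene's log2 signal less its mean over the 9 arrays, was -0.02, 0.42 and 0.40 in RYGB-Success, 0.30, 0.45 and 0.34 in RYGB-Fail, and -0.32, -0.43 and -1.13 in Pair-Fed. Without Pair-Fed array 3 the differences of Folr1 were 0.35 and 0.80 log2 for RYGB-Success and RYGB-Fail minus Pair-Fed, and those of Foxj1 were 0.61 and 0.56. For Enpp2 they were 0.13 and 0.17, and for Igf2 0.01 and 0.47. Slco1a5 still gave 1.54 and 1.03. Leaving out an array cannot lower the count of probe sets with every array above Pair-Fed, so this count is no check on that array. With Pair-Fed array 3 left out it was 5 of 14 for RYGB-Success, beside 15.7% of all. For RYGB-Fail it was 8 of 14, beside 10.6% of all. With RYGB-Success array 3 left out instead, the count for RYGB-Success was 5 of 14, beside 18.0% of all.

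Other genes of the same cells were taken from lists. Of 38 other choroid plexus epithelium genes, 36 were on the array and 29 were tested, and 0 passed in any comparison. Their median difference was 0.46 log2 for RYGB-Success minus Pair-Fed (all probe sets tested 0.05) and 0.54 for RYGB-Fail minus Pair-Fed (all 0.03), with 21 and 26 of 29 above 0. Each gene was counted by its brightest probe set. All 3 RYGB-Success arrays lay above Pair-Fed for 14 of the 36, beside 11.5% of all 14217 genes counted the same way. They lay below for 1, beside 5.71% of all probe sets, bright or dim. All 3 RYGB-Fail arrays lay above for 11, beside 6.12% of all genes, and below for 1, beside 3.76% of all probe sets. The median of RYGB-Success minus RYGB-Fail was 0.02, against 0.01 for all.

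The 4 genes of this list with the lowest p in the F test were Msx1, a homeobox factor, Steap1, a metalloreductase family member, Sostdc1, a secreted inhibitor of BMP and Wnt signalling, and Cldn1, a tight junction protein. Sostdc1 had signals of 1797, 3247 and 2553 in RYGB-Success, 2974, 2227 and 2106 in RYGB-Fail, and 1489, 1693 and 877 in Pair-Fed. Msx1 had 767, 437 and 607 in RYGB-Success, 465, 680 and 308 in RYGB-Fail, and 290, 284 and 106 in Pair-Fed. In all 4 genes the arrays of each bypass group lay above the Pair-Fed arrays. They were picked by a test on these same values, so this separation is no added support. Their differences ran from 0.92 to 1.52 log2 for RYGB-Success minus Pair-Fed, with adjusted p-values of 0.215 to 0.245, and from 0.77 to 1.16 for RYGB-Fail minus Pair-Fed, with adjusted p-values of 1.00. Slc22a8 and Otx2, named after their values were seen, were among the genes below 0 for RYGB-Success minus Pair-Fed. Slc22a8 gave -0.72 ± 0.37 (adjusted p = 0.427), with all RYGB-Success arrays below Pair-Fed. Otx2 gave -0.21 ± 0.29 (adjusted p = 0.776), and 0.66 ± 0.29 for RYGB-Fail minus Pair-Fed. All its RYGB-Success arrays lay below its RYGB-Fail arrays (-0.88 ± 0.29, adjusted p = 0.784). The summed signal of the 36 genes was 23078 to 30804 in RYGB-Success, 23387 to 26872 in RYGB-Fail and 18179 to 22026 in Pair-Fed.

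**Figure D3:**
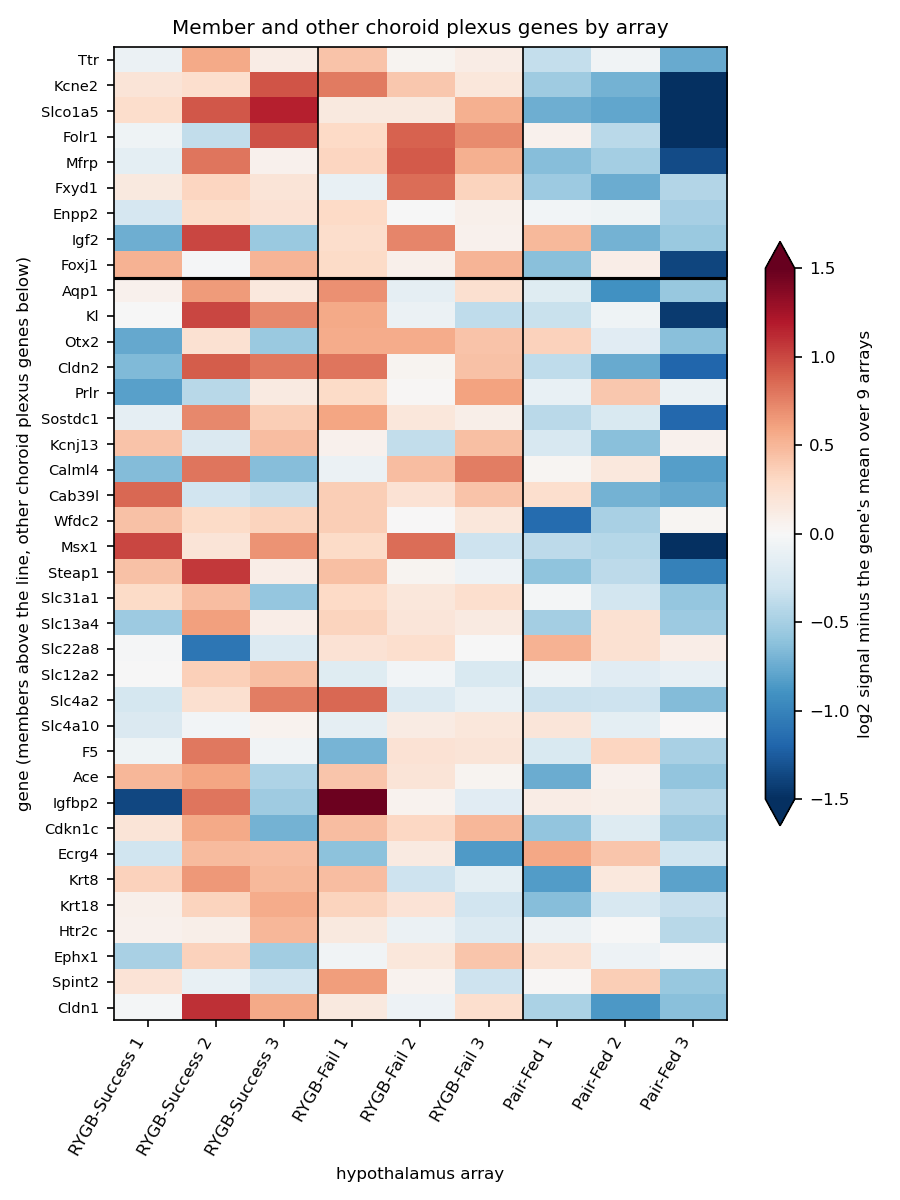
Centred log2 signal of the measured choroid plexus and ependyma genes and of the other choroid plexus genes tested, 1 row a gene and 1 column an array, with RYGB-Success left, RYGB-Fail in the middle and Pair-Fed right. Pair-Fed array 3 is the lowest column for most of the 9 genes, and the other choroid plexus genes have a mean centred level of -0.56 there.

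Of 35 genes of the ependyma and of motile cilia, 21 were on the array and 16 were tested, and 0 passed. Their median difference was 0.01 log2 for RYGB-Success minus Pair-Fed, 0.35 for RYGB-Fail minus Pair-Fed and -0.30 for RYGB-Success minus RYGB-Fail. RYGB-Success array 3, the array that stood furthest apart, was low for this list, whose mean centred levels were 0.18, 0.04 and -0.68 in RYGB-Success, 0.53, 0.13 and 0.06 in RYGB-Fail, and -0.10, 0.09 and -0.25 in Pair-Fed. Without it the medians were 0.25 for RYGB-Success minus Pair-Fed and -0.07 for RYGB-Success minus RYGB-Fail. Tppp3, a tubulin-binding protein, gave 1.02 ± 0.26 (adjusted p = 0.215) for RYGB-Success minus Pair-Fed, and Cfap126, a cilium protein, gave 1.05 ± 0.36 (adjusted p = 0.278). Tekt1, a protein of ciliary microtubules, gave -1.59 ± 0.57 (adjusted p = 0.296), with RYGB-Success signals of 65.9, 62.7 and 14.5, and Cd24, a surface glycoprotein, -1.04 ± 0.34 (adjusted p = 0.259) in the same comparison.

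**Figure D4:**
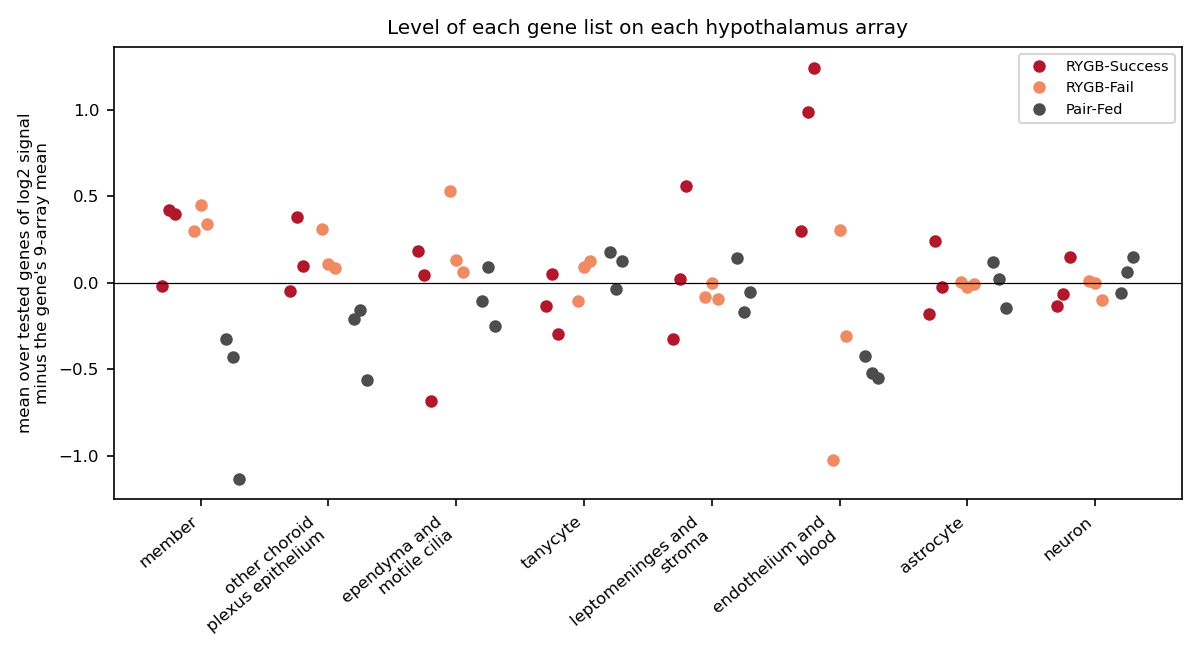
Mean centred log2 signal of the genes tested from each cell type list on every hypothalamus array, with RYGB-Success left, RYGB-Fail in the middle and Pair-Fed right. The choroid plexus lists are lowest on Pair-Fed arrays, and the endothelium and blood list runs from 0.30 to 1.24 on RYGB-Success arrays, from -1.03 to 0.30 on RYGB-Fail arrays and from -0.55 to -0.42 on Pair-Fed arrays.

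Of the lists for other cells, tanycytes, the radial cells of the third ventricle floor, had 10 of 15 genes tested and medians of -0.25 log2 for RYGB-Success minus Pair-Fed and -0.04 for RYGB-Fail minus Pair-Fed. Crym, a thyroid hormone binding protein of tanycytes and neurons, had signals of 2407, 1497 and 803 in RYGB-Success, 4192, 1475 and 4470 in RYGB-Fail, and 6275, 3766 and 4663 in Pair-Fed. Its difference was -1.75 ± 0.42 log2 for RYGB-Success minus Pair-Fed (adjusted p = 0.215). Leptomeninges and stroma, with 16 of 20 genes tested, had medians of -0.02 for RYGB-Success minus Pair-Fed and -0.06 for RYGB-Fail minus Pair-Fed. Neuron genes had -0.19 and -0.10, and astrocyte genes -0.01 and -0.06, in the same comparisons.

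Endothelium and blood genes, 10 of 12 tested and 0 passed, had medians of 0.96 log2 for RYGB-Success minus Pair-Fed, -0.01 for RYGB-Fail minus Pair-Fed and 1.07 for RYGB-Success minus RYGB-Fail. Alas2, the heme synthesis enzyme of red cells, had signals of 382, 279 and 385 in RYGB-Success, 113, 49.1 and 49.99 in RYGB-Fail, and 88.7, 30.4 and 22.5 in Pair-Fed. Hbb, the beta chain of hemoglobin, had 13411, 12195 and 24317 in RYGB-Success, 3348, 6429 and 7958 in RYGB-Fail, and 12362, 3022 and 5176 in Pair-Fed. The summed signal of the 10 genes on the array was 18500 to 31957 in RYGB-Success, 6858 to 12917 in RYGB-Fail and 8192 to 16517 in Pair-Fed, and none of these genes was at 0. Hbb on Pair-Fed array 1 was above RYGB-Success array 2. S100a8 had the largest difference of the list for RYGB-Success minus Pair-Fed, 4.36 ± 1.09 log2 (adjusted p = 0.215). Its signals were 121, 614 and 1397 in RYGB-Success, 6.24, 230 and 76.9 in RYGB-Fail, and 39.2, 14.6 and 21.1 in Pair-Fed. S100a9, named after its values were seen, gave 2.04 ± 0.66 (adjusted p = 0.255) in the same comparison. The endothelial genes of the list, named after their values were seen, gave smaller differences for RYGB-Success minus Pair-Fed. These were -0.01 ± 0.37 for Pecam1, -0.07 ± 0.25 for Slco1c1, 0.16 ± 0.21 for Kdr, 0.43 ± 0.48 for Flt1 and 0.54 ± 0.27 for Cldn5. Vwf, an endothelial and platelet gene, gave 1.38 ± 0.52. The part of blood or vessel RNA in the values of the choroid plexus genes was not tested.

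Among genes that work with the products of this set, 0 passed in any comparison. Carriers, receptors and enzymes of thyroid hormone and retinol had 9 of 16 genes tested and a median of -0.07 log2 for RYGB-Success minus Pair-Fed and 0.13 for RYGB-Fail minus Pair-Fed. Rbp4, the retinol carrier that binds transthyretin, had signals of 180, 177 and 134 in RYGB-Success, 596, 280 and 345 in RYGB-Fail, and 280, 410 and 474 in Pair-Fed. Its difference was -1.23 ± 0.32 log2 (adjusted p = 0.215) for RYGB-Success minus Pair-Fed and 0.03 ± 0.32 (adjusted p = 1.00) for RYGB-Fail minus Pair-Fed. Potassium channel partners of Kcne2 had 3 of 10 genes tested, with medians of -0.12 for RYGB-Success minus Pair-Fed and -0.24 for RYGB-Fail minus Pair-Fed. Kcnq5, a potassium channel of the KCNQ family, gave -1.56 ± 0.39 log2 (adjusted p = 0.215) and -0.62 ± 0.39 (adjusted p = 1.00) in these comparisons, and Kcne4, a channel subunit related to Kcne2, gave 0.31 ± 0.45 (adjusted p = 0.790) and 0.60 ± 0.45 (adjusted p = 1.00). Genes of the insulin-like growth factor system had 11 of 15 tested and medians of 0.25 and 0.19 in RYGB-Success and RYGB-Fail minus Pair-Fed. The lysophosphatidic acid system had 8 of 14 tested and medians of 0.25 and 0.11, folate and organic anion transporters had 10 of 17 tested and medians of 0.19 and 0.08, and sodium pump subunits and Fxyd regulators had 7 of 12 tested and medians of 0.13 and -0.11, in the same comparisons. The mean centred level of the lysophosphatidic acid genes was 0.05 to 0.13 in RYGB-Success, -0.02 to 0.11 in RYGB-Fail and -0.20 to -0.08 in Pair-Fed, so every bypass array was above every Pair-Fed array. That of the insulin-like growth factor genes was 0.02 to 0.35 in RYGB-Success, -0.10 to 0.23 in RYGB-Fail and -0.26 to -0.05 in Pair-Fed. By this measure RYGB-Success did not overlap Pair-Fed. By summed signal of the genes on the array, the groups overlapped in both lists. The lysophosphatidic acid genes had 20964 to 25902 in RYGB-Success, 20002 to 21691 in RYGB-Fail and 20674 to 22641 in Pair-Fed. The insulin-like growth factor genes had 4526 to 5698, 4366 to 5466 and 4395 to 4566 in the same order.

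Thalamus and habenula genes had 6 of 10 tested, with medians of 0.15 log2 for RYGB-Success minus Pair-Fed and 0.08 for RYGB-Fail minus Pair-Fed. Pituitary genes had 8 of 9 on the array, and their summed signal was 245 to 489 in RYGB-Success, 349 to 535 in RYGB-Fail and 141 to 266 in Pair-Fed. Only Tshb, the beta chain of thyrotropin, was bright enough to be tested, with signals of 78.5, 161 and 36.9 in RYGB-Success, 82.5, 76.5 and 49.5 in RYGB-Fail, and 47.1, 37.3 and 38.0 in Pair-Fed. Its differences were 0.93 ± 0.57 log2 (adjusted p = 0.501) for RYGB-Success minus Pair-Fed and 0.74 ± 0.57 (adjusted p = 1.00) for RYGB-Fail minus Pair-Fed. The part of pituitary RNA in the values of the choroid plexus genes was not tested.

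The pattern of each gene over the 9 arrays was set against all other tested probe sets with 1 symbol, and these correlations are a description, since arrays of 1 group share their treatment and scaling. The closest to Ttr was Sostdc1, with Pearson r = 0.98, followed by Lcp2 (0.95) and Cltrn (0.92). The closest to Enpp2 were Epha6 (0.95), the tight junction gene Cldn2 (0.94) and Alb (0.93). The closest to Slco1a5 was Pycr3 (0.96), to Kcne2 Atxn1 (0.96), to Folr1 Slc16a12 (0.93), to Mfrp Rrp15 (0.94), to Fxyd1 Gpr15lg (0.93), to Igf2 Eif4a1 (0.92) and to Foxj1 Pabpn1 (0.95). For the genes from Slco1a5 to Foxj1 in this order, none of the 3 closest was among the other choroid plexus genes tested. For the mean centred level of the 9 genes the closest were Med21 (0.95), LOC102549836 (0.94) and Cltrn (0.94). Next came Pycr3 (0.93), Phyhd1 (0.93) and Sostdc1 (0.93).

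Set against fat, Ttr had signals of 8234 to 20677 over the 9 hypothalamus arrays and 44.6 to 391 over the 9 fat arrays. Fxyd1 had 771 to 2296 in hypothalamus and 763 to 4963 in fat. Enpp2, which adipocytes also secrete, had 5705 to 9931 in hypothalamus and 2695 to 8945 in fat. Igf2 had 258 to 861 in hypothalamus and 55.6 to 490 in fat. Mfrp had 126 to 602 in hypothalamus and 5.4 to 60.9 in fat. Foxj1 had 23.2 to 86.3 in hypothalamus and 7.66 to 242 in fat, with medians of 64.4 and 87.1. In the same order, Slco1a5 had 68.8 to 489 and 1.92 to 300, and Folr1 had 17.0 to 136 and 1.62 to 64.1. Kcne2 had 69.3 to 377 and 4.66 to 76.7 (1394343_s_at), and 26.1 to 163 and 8.86 to 136 (1386770_x_at). The tissues did not overlap for Ttr and Mfrp, and they overlapped for every other tested probe set.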

How the data were processed

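Total RNA of 9 rat hypothalamus samples was put on Affymetrix arrays after Qiagen RNeasy extraction and Nugen WT Ovation amplification, per the labels. The authors deposited 1 linear signal intensity for each probe set and array, and the submitters' processing notes name MAS5 and GCOS. Versions are not given in the sources used here. After trimming 2% at each end, all deposited columns have the same mean, so the authors had already scaled the arrays, which leaves medians unequal. MAS5 signals scatter widely when low.

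Here log2 signals without a pseudocount were fitted in limma 3.58.1 (R 4.3.3; lmFit and eBayes with trend) over the 9 arrays in 3 groups. The test covered the brightest 60% of probe sets (18625 of 31042, mean signal at least 52.7), was 2-sided and used Benjamini-Hochberg adjustment over all of them. It was tested on simulated data. Alternatives were a pseudocount of 50, no filter, the brightest 40%, quantile normalization, median centring, array weights, a replicate block, each array left out and, chosen after seeing the data, low signals held at the filter level, non-overlap counts without RYGB-Success or Pair-Fed array 3 and the ependyma list without RYGB-Success array 3.

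Groups and replicate numbers come from the sample titles. Same-numbered arrays did not deviate together (correlations of -0.16 to 0.07), so the numbers were not taken as pairs. The genes and lists were chosen with earlier results of these data known. Every measured gene of the set is named. Up to 4 genes of a list, those with the lowest p in the F test, could be named, each by its brightest probe set. Genes said to be named after their values were seen come on top of these. For each gene up to 3 probe sets with the closest pattern could be named. The 4 promoter motifs were chosen after the members' values were seen. Promoter windows are from RefSeq on GRCr8. Python 3.11.15, pandas 2.3.3 and matplotlib 3.10.9 made the tables and plots.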

Additional observations from a re-analysis of the deposited data

Results flagged for a closer look

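In the results below, every array of a bypass group lay above Pair-Fed in hypothalamus and below Pair-Fed in fat. The difference between the tissues was not tested. The share of all probe sets that do this was not counted, so these results cannot be called unusual. The Kcne2 results come from the same probe set, and all of them rest on the same Pair-Fed arrays of each tissue. For Kcne2 (1394343_s_at) the hypothalamus difference was 1.37 log2 for RYGB-Success minus Pair-Fed, while its fat signals were 5.29, 18.9 and 8.71 in RYGB-Success against 69.1, 76.7 and 53.4 in Pair-Fed. For RYGB-Fail minus Pair-Fed the hypothalamus difference was 1.36 log2, while its fat signals were 46.7, 4.66 and 7.80 in RYGB-Fail against the same Pair-Fed arrays. The fat signals of this probe set lie in the low range where MAS5 values scatter, and the other tested Kcne2 probe set, 1386770_x_at, did not follow it in fat. That probe set had 27.6, 81.8 and 80.5 in RYGB-Success, 9.65, 22.5 and 136 in RYGB-Fail, and 8.86, 69.3 and 9.06 in Pair-Fed. For Fxyd1 the hypothalamus difference was 0.80 log2 for RYGB-Success minus Pair-Fed, while its fat signals were 1631, 1120 and 763 in RYGB-Success against 3034, 3608 and 2078 in Pair-Fed.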

How the results depend on the processing

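Under all 17 alternatives 0 of the choroid plexus and ependyma probe sets passed in any comparison, and their lowest adjusted p-values were 0.0674 for RYGB-Success minus Pair-Fed (Slco1a5, with array weights), 0.647 for RYGB-Fail minus Pair-Fed and 0.368 for RYGB-Success minus RYGB-Fail. For RYGB-Fail minus Pair-Fed 0 of 167 values changed sign. For RYGB-Success minus Pair-Fed 3 of 167 did, all of Igf2, which was -0.047 with array weights and ran from -0.39 to 0.53 with 1 array left out. For RYGB-Success minus RYGB-Fail 17 of 167 did, over 5 probe sets. These were Ttr (-0.18 with quantile normalization, -0.071 with array weights, -0.18 to 0.15 with 1 array left out), Kcne2 1394343_s_at (-0.011 with array weights, -0.23 to 0.17), Fxyd1 (-0.37 to 0.11), Enpp2 (0.00037 with median centring, -0.14 to 0.12) and Foxj1 (-0.15 with quantile normalization, -0.063 to 0.23). The cause was not tested. Over all probe sets, RYGB-Success minus Pair-Fed had 2 passing, against 1 with the brightest 40%, 6 with array weights, 4 with low signals held, and 1 to 64 with 1 array left out (64 without RYGB-Success array 2). RYGB-Success minus RYGB-Fail had 1, against 2 with the pseudocount, no filter, quantile normalization, median centring, the replicate block or low signals held, 6 with array weights and 0 to 6 with 1 array left out. The F test had 2, against 1 with the brightest 40% and 1 to 5 with 1 array left out. RYGB-Fail minus Pair-Fed had 0 throughout, with 445 probe sets at an unadjusted p under 0.05, of which 75.7% were higher, against 64.2% with quantile normalization, 58.0% with median centring and 51.9% without RYGB-Fail array 3. The replicate block changed no other call. Low signals limit Folr1, Foxj1 and the dim Kcne2 and Igf2 probe sets.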
